A study of Mus musculus with 11 samples.

Results

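The clustered protocadherins are adhesion proteins of the cadherin superfamily, encoded side by side in the alpha, beta and gamma gene clusters of a single locus. Members were the named genes whose symbol begins with Pcdha, Pcdhb, Pcdhga, Pcdhgb or Pcdhgc followed by a number, or with Pcdhac. This gave 58 of the 23835 named genes on the arrays. The alpha cluster had 14 members (12 variable genes and 2 of the C-type), the beta cluster had 22, and the gamma cluster had 22 (12 of the A subfamily, 7 of the B subfamily and 3 of the C-type).

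RNA came from mouse mammary tumour cells of the genotype MMTV-rtTA;TetO-Wnt1, in which the MMTV promoter places the doxycycline-dependent activator mainly in mammary epithelium and the activator drives Wnt1. The cells carried H2B-eGFP, were implanted orthotopically into female nu/nu mice, which lack a thymus but keep other white blood cells, and were recovered as GFP-positive cells. The 4 primary arrays (treatment label Untreated) held cells from tumours grown on doxycycline, the 3 residual arrays held cells from lesions 28 days after doxycycline was withdrawn, and the 4 recurrent arrays held cells from regrown tumours, with the last 2 groups labelled Wnt1 inhibition. The age of the mice, and whether the Wnt1-Prim1 cells named in the series title are 1 clone, are not given in the sources used here, nor do the labels tie each array to its own animal. The p-values therefore reflect only how these arrays varied, and that variation may be technical.

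In this locus most variable exons have a promoter of their own. In the alpha and gamma clusters the chosen variable exon is spliced to constant exons that all members of the cluster share, whereas each beta gene is a single coding exon with no constant part. The proteins bind the same isoform on a neighbouring cell, and neurons, where they are best known, use different combinations of isoforms to tell their own branches from those of other cells. Promoter choice involves CTCF and cohesin, which loop an active promoter to a distant enhancer, and DNA methylation or the chromatin protein SMCHD1 can silence promoters of the locus. The C-type genes are regulated apart from the others. Methylation of the protocadherin promoters has been described in several human tumours, breast tumours among them.

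Signals are log2 values, and a level is compared only with the same gene's level on other arrays. As a measure of background, the 95th percentile of 1083 olfactory receptor genes was taken on each array. It lay between 4.00 and 4.03 on primary arrays, 4.35 and 4.39 on residual arrays, and 4.06 and 4.12 on recurrent arrays. The mean of all named genes was 4.95 to 4.97 on every array. Wnt1 itself read 2.89 to 3.26 on all 11 arrays, within background in every group, so its signal does not check the withdrawal. Among epithelial markers, Krt8 read 10.08 ± 0.07 (SD, n = 4) on primary arrays, 8.18 to 8.59 on residual and 9.38 to 10.16 on recurrent arrays, and Krt18 read 10.13 to 10.56, 7.08 to 8.83 and 8.95 to 10.59. Both keratins fell in residual against primary cells (-1.67, limma adjusted p = 0.000103, and -2.32, 0.00432) and rose in recurrent against residual cells (1.37, 0.000796, and 1.75, 0.0339). Of 16 luminal epithelial markers, these keratins included, 1 rose and 3 fell in residual against primary cells, with a median difference of 0.47. Cdh1 (0.78, limma adjusted p = 0.382) and Epcam (1.33, 0.103) were not called, although in each every residual array was above every primary array. Epcam was above background on 0 of 4 primary, 1 of 3 residual and 0 of 4 recurrent arrays.

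Beta and gamma protocadherins were higher in residual than in primary cells, and alpha protocadherins were not called in either direction. Of the 58 members 18 rose (11 of 22 beta, 7 of 22 gamma and 0 of 14 alpha genes) and 0 fell at an adjusted p under 0.05 in limma. Over all named genes 4.81% were called higher and 7.61% lower. The median log2 difference, residual minus primary, was 1.16 for the beta cluster, 1.06 for the gamma cluster and 0.08 for the alpha cluster, against 0.03 for all named genes. The sign was positive for 20 of 22 beta, 21 of 22 gamma and 9 of 14 alpha members, and for 53.9% of all named genes. The median of the olfactory receptor genes was also higher on residual (2.50 to 2.54) than on primary arrays (2.34 to 2.38). The part of such a shift in small differences of dim members was not tested. In bulk RNA, fewer cells of a type and less RNA per cell cannot be told apart.

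**Figure D1:**
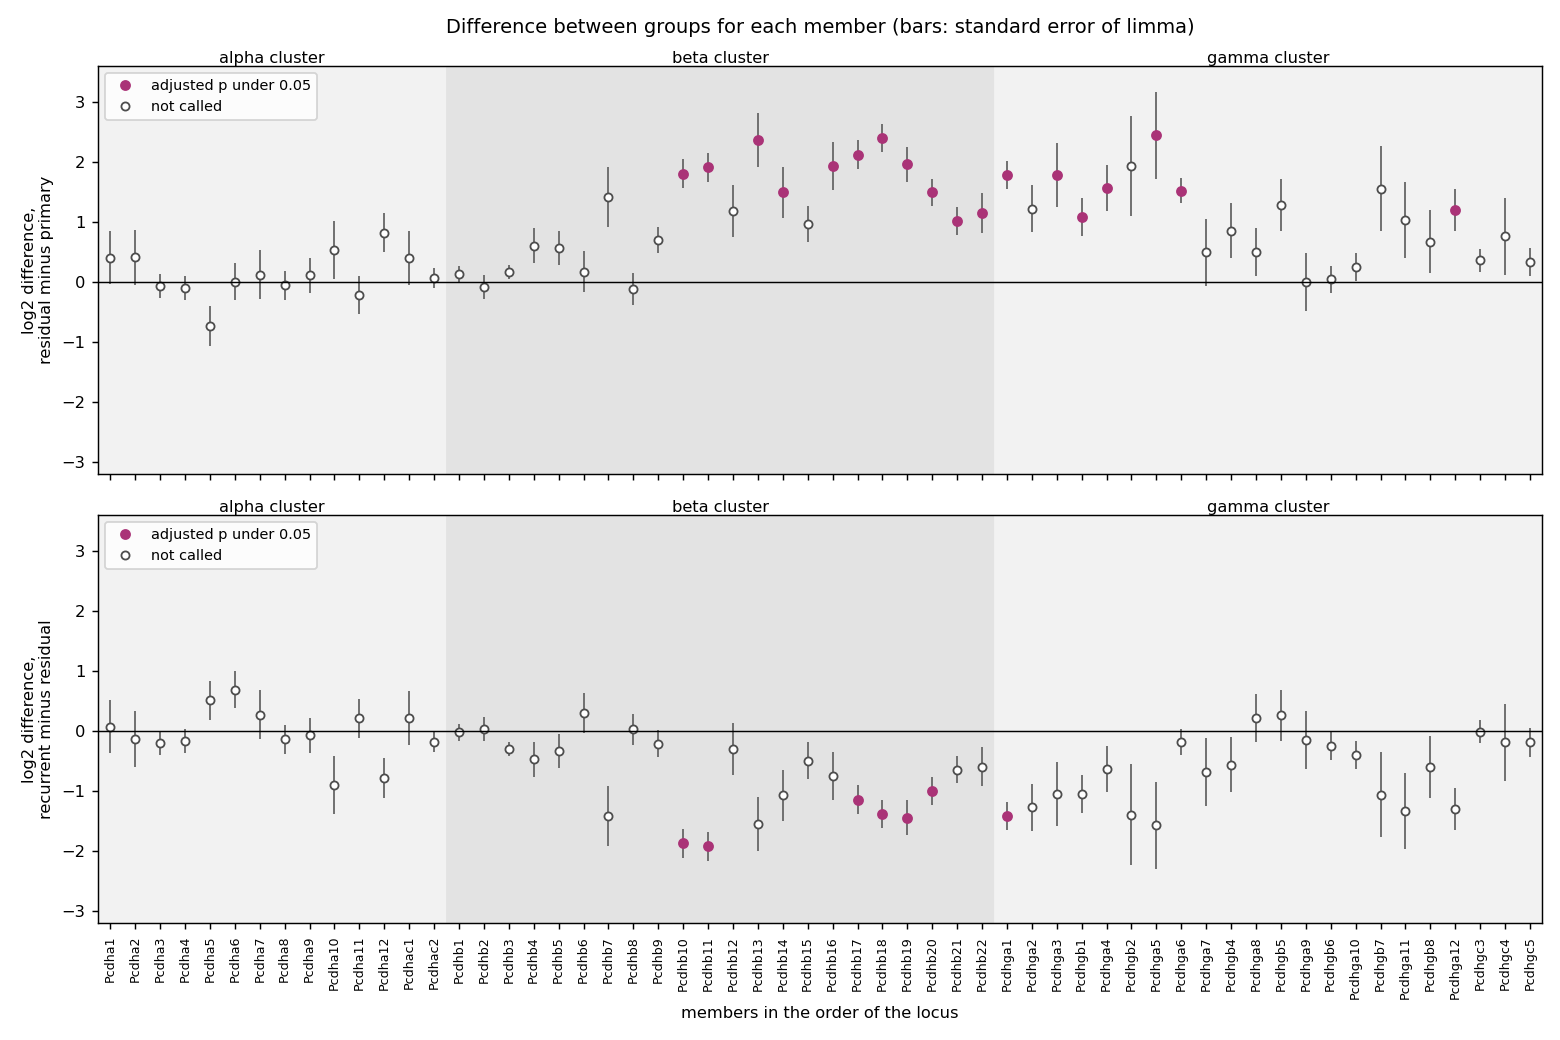
Log2 difference of each of the 58 members, residual minus primary (top) and recurrent minus residual (bottom), against the order of the genes in the locus. Points are limma estimates with their standard errors, and filled points passed an adjusted p of 0.05; the 18 filled points of the top panel are all above 0 and the 7 of the bottom panel are all below 0.

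The mean over the 22 beta genes was 3.71, 3.43, 3.76 and 3.59 on the primary arrays, 4.44, 4.69 and 5.19 on the residual arrays, and 3.83, 3.99, 3.99 and 4.29 on the recurrent arrays. Every residual array was above every array of the other groups, and every recurrent array was above every primary array. The mean over the 22 gamma genes was 5.26, 4.74, 5.23 and 5.50 on primary, 6.24, 6.01 and 6.37 on residual, and 5.97, 5.79, 4.86 and 5.52 on recurrent arrays. Residual arrays were again the highest, and recurrent arrays overlapped the primary range. The mean over the 14 alpha genes ran from 2.40 to 2.75 on primary, 2.55 to 3.13 on residual and 2.45 to 2.84 on recurrent arrays, so the groups overlapped.

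**Figure D2:**
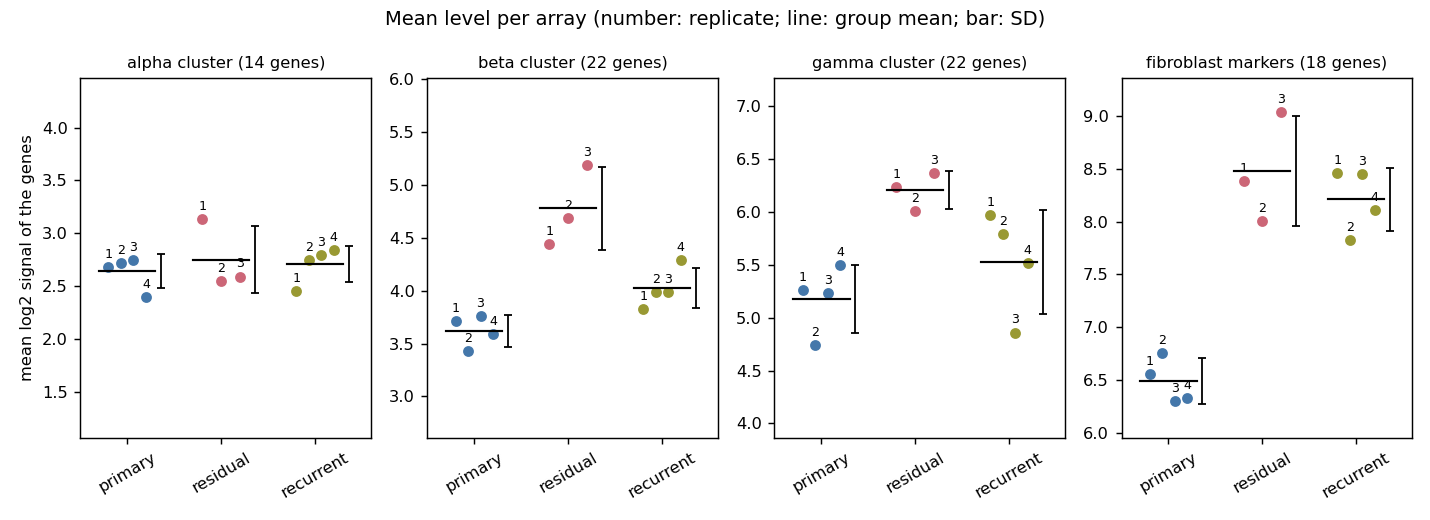
Mean log2 signal of the alpha, beta and gamma clusters and of 18 fibroblast markers on each array, by group (points numbered by replicate; lines, group means; bars, SD; n = 4, 3 and 4 arrays). Beta means of the residual arrays (4.44 to 5.19) lie above those of the recurrent arrays (3.83 to 4.29), as do gamma means (6.01 to 6.37 and 4.86 to 5.97). Fibroblast marker means of the residual (8.01 to 9.04) and recurrent arrays (7.83 to 8.46) overlap.

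Called genes were not spread evenly along the locus. The groupings by position in this paragraph were made after the values were seen and carry no test. Pcdhb1 to Pcdhb9, the side of the beta cluster nearest the alpha cluster, held 0 called genes of 9, with a median difference of 0.17, and 0 of the 9 were above background on every array of any group. Pcdhb10 to Pcdhb22 held 11 called genes of 13, with a median of 1.80, and in all 13 every residual array was above every primary array. Over all named genes 11.1% had every residual array above every primary array. In the order given by the RefSeq table for assembly GRCm38.p6 the run went on into the gamma cluster. From Pcdhb10 to Pcdhga6, 17 of 21 genes were called, with a median of 1.78, and the 4 not called (Pcdhb12, Pcdhb15, Pcdhga2 and Pcdhgb2) also had positive differences. Of the other 37 members 1 was called, Pcdhga12, and 28 had positive differences, with a median of 0.36. From Pcdhga7 to Pcdhgc5, 13 of 14 genes had positive differences, with a median of 0.58. The end of the run at Pcdhga6 is thus an end of most calls and not of positive differences.

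**Figure D3:**
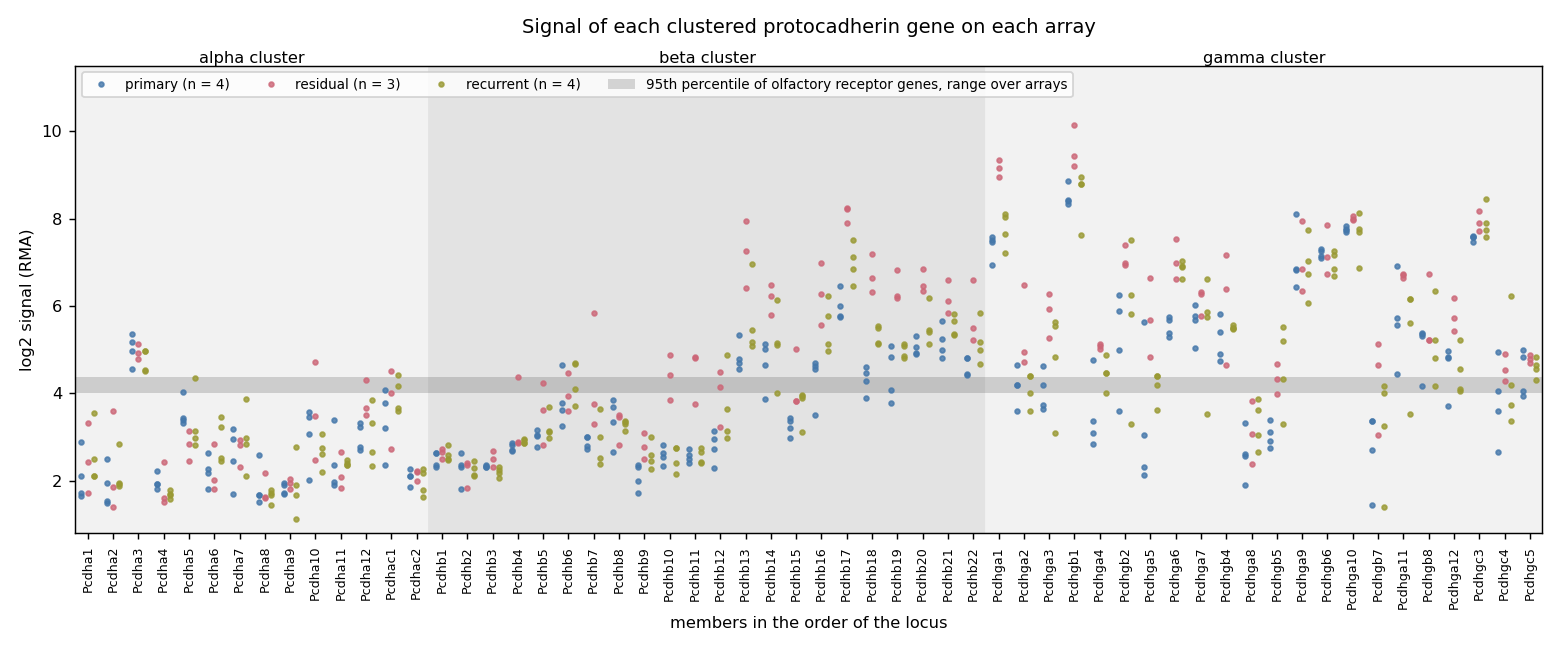
Log2 signal of every member on every array, in the order of the locus, with the range of the background level (95th percentile of olfactory receptor genes) as a dark band. Residual points of Pcdhb10 to Pcdhb22 lie above all primary points of the same gene, and most alpha and Pcdhb1 to Pcdhb9 points lie in or under the band; heights of different genes are not comparable.

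Among the beta genes, Pcdhb18 had the largest called difference. Pcdhb18 read 4.61, 3.89, 4.46 and 4.29 on primary arrays, 6.32, 6.63 and 7.20 on residual arrays, and 5.16, 5.12, 5.50 and 5.55 on recurrent arrays. The groups did not overlap: residual arrays were highest, recurrent arrays in between and primary arrays lowest. Residual exceeded primary cells 5.28-fold (log2 difference 2.40, SE 0.23, limma adjusted p = 5.32e-05).

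Pcdhb17, its neighbour in the locus, read 5.77, 5.76, 6.46 and 6.0 on primary, 7.91, 8.22 and 8.24 on residual, and 6.45, 6.84, 7.13 and 7.51 on recurrent arrays. The residual arrays lay above all others, and the lowest recurrent array lay just under the highest primary array. The residual level was 8.12 ± 0.18 (SD, n = 3) against 6.0 ± 0.33 (n = 4), a 4.35-fold difference (limma adjusted p = 0.000210).

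Pcdhb13 read 4.57, 5.34, 4.79 and 4.70 on primary, 6.42, 7.26 and 7.95 on residual, and 5.18, 5.09, 5.44 and 6.96 on recurrent arrays. Recurrent replicate 4 fell within the residual range, and the other recurrent arrays were close to the primary ones. The residual to primary difference was 2.36 (SE 0.45, 5.13-fold, limma adjusted p = 0.00553).

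Pcdhb19 and Pcdhb16 rose by similar amounts. Pcdhb19 read 5.08, 3.78, 4.84 and 4.09 on primary and 6.22, 6.19 and 6.82 on residual arrays (3.89-fold, limma adjusted p = 0.00112). Pcdhb16 read 4.69, 3.50, 4.57 and 4.63 on primary and 5.56, 6.27 and 6.99 on residual arrays (3.80-fold, limma adjusted p = 0.00905). In both genes primary replicate 2 was the lowest array and the primary and residual arrays did not overlap.

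Pcdhb10 and Pcdhb11 were on 0 of 4 primary and 0 of 4 recurrent arrays above background. Pcdhb10 read 3.86, 4.42 and 4.88 on residual arrays, against 2.35 to 2.81 on primary arrays, and Pcdhb11 read 3.76, 4.84 and 4.82 against 2.40 to 2.74. On both, residual replicate 1 was itself under background. The fitted differences were 1.80 (SE 0.24, limma adjusted p = 0.000505) for Pcdhb10 and 1.91 (SE 0.24, limma adjusted p = 0.000334) for Pcdhb11. The residual means, 4.39 and 4.47, were at about the background level of the residual arrays themselves (4.35 to 4.39), so no fold is given.

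The other called beta genes were Pcdhb14, Pcdhb20, Pcdhb21 and Pcdhb22, whose differences ran from 1.01 for Pcdhb21 to 1.49 for Pcdhb14 and Pcdhb20. Pcdhb20 read 4.91 to 5.31 on primary and 6.34 to 6.85 on residual arrays (limma adjusted p = 0.00156). Pcdhb21 was called at an adjusted p of 0.0139 in limma, and without residual replicate 3 its difference was 0.80 (adjusted p = 0.06). The calls of Pcdhb14 (adjusted p = 0.0429) and Pcdhb22 (0.0417) were the weakest of the cluster. That of Pcdhb14 held without recurrent replicate 1 or recurrent replicate 4 and was lost on leaving out any of the other 9 arrays, and that of Pcdhb22 held without residual replicate 1, recurrent replicate 3 or recurrent replicate 4 and was lost on leaving out any of the other 8. The Pcdhb22 call also ended under median centring and interquartile scaling (0.0533 in each). Over all alternatives the limma adjusted p reached 0.136 for Pcdhb14 and 0.142 for Pcdhb22.

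Just outside the threshold, Pcdhb15 differed by 0.97 (limma adjusted p = 0.0548), Pcdhb9 by 0.70 (0.0577), Pcdhb7 by 1.41 (0.0916) and Pcdhb12 by 1.18 (0.102). Pcdhb7 read 3.75, 3.29 and 5.84 on residual arrays, with replicate 3 far above the other two. The residual arrays were not alike in this cluster: replicate 3 was the highest of them for 16 of 22 beta genes and replicate 1 the lowest for 13, against 31.4% and 29.8% of all named genes. Without residual replicate 3 the beta median fell to 0.77, and without residual replicate 1 it was 1.44.

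**Figure D4:**
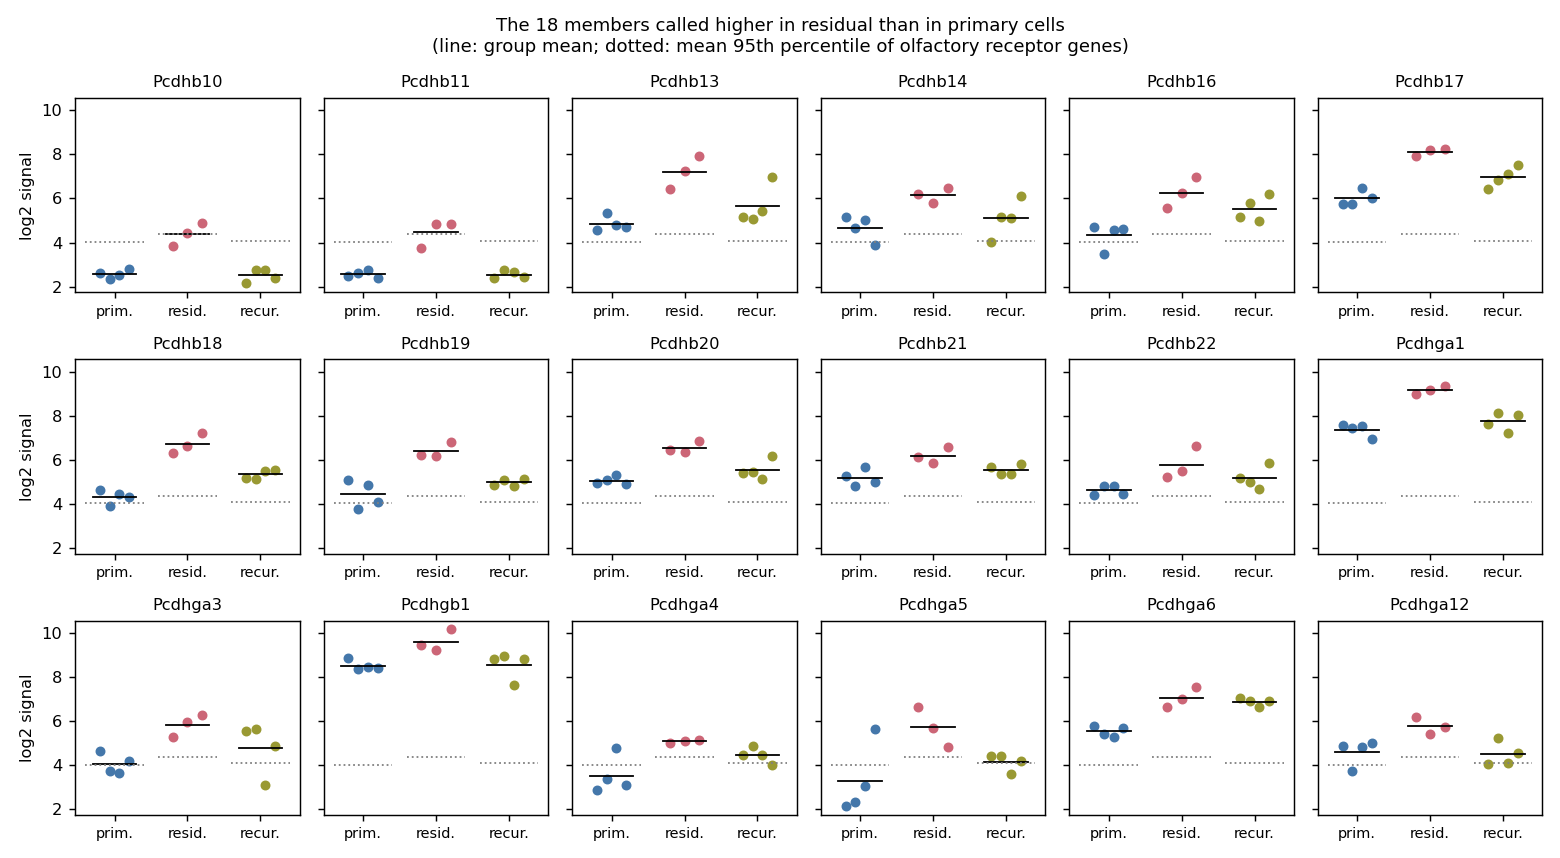
Log2 signals of the 18 members called higher in residual than in primary cells, on the 4 primary, 3 residual and 4 recurrent arrays (points, in replicate order; lines, group means; dotted lines, background level of the group). Only in Pcdhga5 among these panels does a primary array, replicate 4 at 5.63, reach the residual range of 4.83 to 6.65.

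In the gamma cluster 6 of 12 A genes and 1 of 7 B genes were called, and 0 of the 3 C-type genes. Pcdhga1, the gamma gene nearest the beta cluster, read 7.57, 7.46, 7.52 and 6.93 on primary, 8.96, 9.16 and 9.34 on residual, and 7.64, 8.11, 7.21 and 8.03 on recurrent arrays. The residual arrays lay above all others and the recurrent arrays overlapped the primary ones. Residual exceeded primary cells by 1.78 (SE 0.23, 3.44-fold, limma adjusted p = 0.000448).

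Pcdhga6 was higher than in primary cells in both residual and recurrent cells. It read 5.75, 5.39, 5.29 and 5.67 on primary, 6.62, 6.98 and 7.53 on residual, and 7.03, 6.90, 6.62 and 6.92 on recurrent arrays. All residual and all recurrent arrays were above the primary arrays, and the residual and recurrent ranges overlapped. The residual to primary difference was 1.52 (SE 0.21, 2.86-fold, limma adjusted p = 0.000692).

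The other called gamma genes had adjusted p-values of 0.0190 to 0.0488. Pcdhga4 read 2.85, 3.37, 4.77 and 3.09 on primary and 5.02, 5.09 and 5.13 on residual arrays, a difference of 1.56 (limma adjusted p = 0.0190). Pcdhgb1 read 8.85, 8.34, 8.43 and 8.41 on primary and 9.43, 9.20 and 10.15 on residual arrays, a difference of 1.08 (limma adjusted p = 0.0457). In both genes the primary and residual arrays did not overlap, although primary replicate 3 of Pcdhga4 came close.

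Pcdhga3 differed by 1.78 (limma adjusted p = 0.0488), Pcdhga12 by 1.19 (0.0454) and Pcdhga5 by 2.44 (0.0467). Pcdhga5 had the largest difference of all members and also the most uneven primary arrays, at 2.14, 2.32, 3.04 and 5.63. Pcdhga5 and Pcdhga4 were each above background on 1 of 4 primary arrays, so the sizes of these 2 differences are uncertain. All 5 calls ended under other settings. Pcdhga3 was not called under median centring, a second quantile normalization or interquartile scaling (limma adjusted p = 0.0531 to 0.0566), and Pcdhga12 was not called under centring, interquartile scaling or array weights (0.0509 to 0.0562). Pcdhga5 was not called under any of those scalings (0.0509 to 0.0541), array weights (0.0864) or a fit on only the groups compared (0.0899), Pcdhgb1 under centring (0.0599), and Pcdhga4 under array weights (0.0542). The Pcdhga4 call was lost without residual replicate 2 or 3 or primary replicate 1, 2 or 4, with an adjusted p of up to 0.059. The other 4 calls each held on leaving out only 2 or 3 of the arrays in turn: recurrent replicates 1, 2 and 3 for Pcdhga3 and Pcdhga12, residual replicate 2 and recurrent replicates 2 and 3 for Pcdhgb1, and residual replicate 3 and primary replicate 4 for Pcdhga5. The limma adjusted p over all alternatives reached 0.155 for Pcdhga3, 0.152 for Pcdhga12, 0.17 for Pcdhgb1 and 0.161 for Pcdhga5.

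Several gamma genes were well above background on all arrays and were not called. Pcdhga10 read 7.69 to 7.83 on primary and 7.97 to 8.06 on residual arrays, a difference of 0.25 (95% interval from -0.25 to 0.76). Pcdhgb6 differed by 0.04 (interval from -0.47 to 0.54), and Pcdhga9 was at 7.05 ± 0.73 in primary and 7.04 ± 0.82 in residual cells (SD, n = 4 and 3). These genes lie toward the far side of the gamma cluster from the beta genes. On that same side Pcdhga12 was called, and Pcdhgb7 (1.55, limma adjusted p = 0.193) and Pcdhga11 (1.03, 0.348) had positive differences that were not called. Pcdhgb2 (difference 1.93, limma adjusted p = 0.172), Pcdhgb5 (1.28, 0.0793) and Pcdhga2 (1.22, 0.0683) also had positive differences that did not pass the threshold.

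The C-type genes of both clusters were not called in any comparison. Pcdhgc3, whose protein is known to bind the Wnt pathway scaffold Axin1, read 7.61, 7.59, 7.58 and 7.46 on primary, 7.71, 7.90 and 8.18 on residual, and 8.44, 7.57, 7.90 and 7.75 on recurrent arrays. Every residual array was above every primary array, by a difference of means of 0.36 (95% interval from -0.06 to 0.79, limma adjusted p = 0.271). Pcdhgc4, which neurons need for survival, differed by 0.76 (interval from -0.65 to 2.16) and Pcdhgc5 by 0.33 (-0.21 to 0.86). In the alpha cluster Pcdhac1 differed by 0.39 (-0.60 to 1.39) and Pcdhac2, which serotonergic neurons use to space their axons, by 0.06 (-0.32 to 0.43).

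Alpha genes were mostly in the background range. Across all arrays 4 of the 14 exceeded background on at least 1 array, and 1, Pcdha3, exceeded it on every array of each group. Pcdha3 read 4.57, 5.17, 5.37 and 4.97 on primary, 4.78, 4.93 and 5.14 on residual, and 4.97, 4.53, 4.97 and 4.51 on recurrent arrays. The groups overlapped, and the residual to primary difference was -0.07 (95% interval from -0.51 to 0.37). Pcdha5 was the member with the lowest difference, -0.73, and its residual arrays (2.46 to 3.14) were all below its primary arrays (3.33 to 4.03). Its difference was not called, except without recurrent replicate 3 (limma adjusted p = 0.0441). By comparison, 5, 9 and 8 of the 22 beta genes and 11, 18 and 10 of the 22 gamma genes exceeded background on every array of the primary, residual and recurrent groups, respectively, against 50.3%, 46.7% and 49.5% of all named genes.

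Recurrent cells were next set against primary cells, the tumours before regression. Of the 58 members 2 rose and 0 fell in recurrent against primary cells, with 0.818% of all named genes called higher and 0.986% lower. The 2 were Pcdhga6 (difference 1.34, SE 0.19, 2.53-fold, limma adjusted p = 0.0047) and Pcdhb18 (1.02, SE 0.21, 2.02-fold, limma adjusted p = 0.0353). Pcdhb18 kept this call on leaving out residual replicate 1, residual replicate 3 or recurrent replicate 2 and lost it on leaving out any of the other 8 arrays, with an adjusted p of up to 0.0965, and it also lost it after a second quantile normalization (0.0559). Pcdhb17 (0.98, limma adjusted p = 0.0557, but 0.037 and 0.0457 under the filters on dim genes), Pcdhgb5 (1.54, 0.0872) and Pcdhb16 (1.18, 0.155) had differences near those sizes that were not called. Cluster medians were 0.45 for beta, 0.32 for gamma and 0.01 for alpha genes, against -0.01 for all named genes.

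Recurrent cells were also compared with residual cells, which share their arrays with the first comparison. Here 7 members fell and 0 rose, 6 of them beta genes, whereas 2.19% of all named genes were called lower and 3.58% higher. Medians, recurrent minus residual, were -0.62 for beta, -0.61 for gamma and -0.10 for alpha genes, against -0.03 for all named genes. Pcdhb11 (-1.92, limma adjusted p = 0.000661) and Pcdhb10 (-1.87, 0.000747) fell to levels under background. Their residual means, 4.47 and 4.39, were already at about the residual background level, so the size of these falls is uncertain. Pcdhb11 read 2.40, 2.75, 2.65 and 2.42 on recurrent arrays, and Pcdhb10 read 2.15, 2.76, 2.76 and 2.40.

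Pcdhb18 fell by 1.38 from residual to recurrent cells (limma adjusted p = 0.00452), Pcdhga1 fell by 1.41 (0.00422), Pcdhb19 fell by 1.44 (0.0139), Pcdhb17 fell by 1.14 (0.0193) and Pcdhb20 fell by 1.00 (0.0267). The Pcdhb17 call was lost without residual replicate 2 or 3 (adjusted p = 0.067 and 0.0649) and in a fit on only the groups compared (0.0587), and the Pcdhb19 call without residual replicate 3 (0.0553). The Pcdhb20 call was lost without residual replicate 1 or 3 or recurrent replicate 1, 2 or 3 (up to 0.0966), and in that same fit (0.0989). Pcdhga12 was just outside the threshold (-1.30, limma adjusted p = 0.0525) and was called after a second quantile normalization (0.0441), under interquartile scaling (0.0479), under the filters on dim genes (0.0355 and 0.043), and without primary replicate 2 (0.0246) or recurrent replicate 2 (0.0229). For Pcdhb13 the difference of -1.54 was not called (limma adjusted p = 0.0723), with recurrent replicate 4 at 6.96. Without that array the difference was -1.97 (adjusted p = 0.00797), and the call was also made without residual replicate 1 (0.0476) and under the background filter (0.0488). Pcdhga6 differed by -0.18 (adjusted p = 0.701).

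Recurrent arrays differed among themselves in the gamma cluster. Recurrent replicate 3 was the lowest of the 4 for 13 of 22 gamma genes, against 25.8% of all named genes. On it Pcdhgb2 read 3.31 against 5.81 to 7.52 on the others, Pcdhga7 read 3.53 against 5.76 to 6.61, and Pcdhga11 read 3.54 against 5.61 to 6.15. For the beta genes recurrent replicate 4 was the highest for 11 of 22, against 22.8% of all named genes. Among primary arrays, replicate 2 was the lowest for 12 beta and 10 gamma genes of 22 each, against 27.3% of all named genes.

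The genes that flank the locus were given as a comparison. Of the 5 named genes on each side and the 2 between the beta and gamma clusters, Hars, a histidyl-tRNA synthetase, fell in residual against primary cells (-0.57, limma adjusted p = 0.0296) and Rell2 rose (0.52, 0.0405) with all its arrays under background. The other 10 were not called, and in the comparisons with recurrent cells 0 of 12 were called. Among all named genes 4.81% were called higher and 7.61% lower in residual against primary cells. Slc25a2 and Taf7, which sit between Pcdhb22 and Pcdhga1 inside the run of called genes, differed by 0.34 (limma adjusted p = 0.459) and 0.63 (0.0718). Taf7, a subunit of the general transcription factor TFIID, was at 6.18 ± 0.23 in primary and 6.81 ± 0.30 in residual cells (SD, n = 4 and 3).

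Protocadherins outside the clusters, which are dispersed single genes, mostly did not pass the test. Of 12 measured, Pcdh18 rose in residual against primary cells (1.55, limma adjusted p = 0.031) and 0 fell, with a list median of 0.05. The shares of all named genes were 4.81% higher and 7.61% lower. Pcdh18 read 4.56 to 4.90 on primary, 5.74, 6.02 and 7.08 on residual, and 8.0, 6.15, 7.16 and 6.36 on recurrent arrays. In recurrent against primary cells Pcdh18 rose (2.18, limma adjusted p = 0.0164) and Pcdh7 fell (-1.26, 0.0224), and in recurrent against residual cells 0 of 12 were called in limma, with 1 at an unadjusted p under 0.05. The recurrent arrays of Pcdh18 thus lay above all primary arrays, as they did for 3 of the 58 members, Pcdhga6, Pcdhb18 and Pcdhb16. The same held for 868 of the 23835 named genes.

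Among 14 genes of CTCF, cohesin and its loaders and release factors, 1 was called in residual against primary cells. Rad21, the cohesin subunit that closes the ring, fell (-0.44, limma adjusted p = 0.0454), and Ctcf differed by 0.17 (0.547). At an unadjusted p under 0.05 there were 5 of 14: Rad21, Smc3 (-0.44, adjusted p = 0.0908), Wapl (-0.41, 0.0707) and Smc1a (-0.26, 0.186), each with every residual array below every primary array, and the loader subunit Mau2 (0.41, 0.0982). Of the 23835 named genes 6141 were at an unadjusted limma p under 0.05 in this comparison, and 3263 had every residual array below every primary array. In recurrent against primary cells 0 of 14 were called in limma, with 0 at an unadjusted p under 0.05, against 3234 of the 23835 named genes. In recurrent against residual cells 0 of 14 were called, with 6 at an unadjusted p under 0.05, against 4706 of the 23835 named genes. The list median was -0.04 in residual against primary cells, over members with differences of both signs.

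Of 16 genes of DNA methylation and heterochromatin, 3 fell and 0 rose in residual against primary cells, with a list median of -0.08. The shares of all named genes were 7.61% lower and 4.81% higher. Dnmt1, the maintenance DNA methyltransferase, read 8.66, 8.62, 8.69 and 8.72 on primary, 7.99, 7.84 and 7.60 on residual, and 8.48, 8.07, 8.97 and 8.62 on recurrent arrays. All residual arrays were below all arrays of the other groups (residual minus primary -0.86, limma adjusted p = 0.0109; recurrent minus residual 0.72, 0.0442). Setdb1, a histone H3 lysine methyltransferase of silent chromatin, and Trim28, which recruits it, fell by 0.53 and 0.43 in residual against primary cells (limma adjusted p = 0.0421 and 0.0474). At an unadjusted limma p under 0.05 there were 8 of 16, against 6141 of the 23835 named genes. Besides the 3 called, Tet2 (-0.70, limma adjusted p = 0.0703) and Ehmt2 (-0.52, 0.14) had negative differences. Tet1 (0.64, 0.0724), Dnmt3b (0.62, 0.0517) and Tet3 (0.60, 0.0586) had positive ones, with Dnmt3b under background throughout. Smchd1 differed by -0.23 (0.424), and by 0.61 (0.0518) in recurrent against residual cells. In recurrent against primary cells 0 of 16 were called in limma, with 3 at an unadjusted p under 0.05, against 3234 of the 23835 named genes.

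Of 23 genes of proteins that bind, cleave or signal from protocadherins, such as the kinases Ptk2 and Ptk2b, the WAVE complex, Adam10 and presenilins, 1 was called. Prkca, a protein kinase C, fell in residual against primary cells (-0.73, limma adjusted p = 0.00954) and rose in recurrent against residual cells (0.74, 0.0171). It read 7.27 to 7.62 on primary, 6.54 to 6.91 on residual and 7.22 to 7.72 on recurrent arrays. The list median was -0.23 in residual against primary cells. In recurrent against primary cells 0 of 23 were called in limma, with 2 at an unadjusted p under 0.05, against 3234 of the 23835 named genes. Among all named genes 7.61% were called lower in residual against primary cells and 3.58% higher in recurrent against residual cells.

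Marker lists of other cell types were measured on the same arrays. Among all named genes 4.81% were called higher and 7.61% lower in residual against primary cells. These shares were 0.818% and 0.986% in recurrent against primary cells, and 3.58% and 2.19% in recurrent against residual cells. Of 18 fibroblast markers 12 rose and 0 fell in residual against primary cells, with a list median of 2.10, and 8 rose and 0 fell in recurrent against primary cells, with a median of 1.02. The largest rises in residual against primary cells were in Dpt (5.08, limma adjusted p = 0.000309), Mfap5 (4.55, 0.00127), Lum (4.17, 0.00175) and Col3a1 (4.00, 0.000306), all extracellular matrix proteins, and Pdgfrb rose by 2.82 (5.74e-07). The mean of the 18 markers was 6.30 to 6.76 on primary, 8.01 to 9.04 on residual and 7.83 to 8.46 on recurrent arrays. Residual replicate 3 had the highest mean of the fibroblast markers (9.04), of the beta genes (5.19) and of the gamma genes (6.37). Recurrent replicate 1 had the highest recurrent fibroblast mean (8.46), the highest recurrent gamma mean (5.97) and the lowest recurrent beta mean (3.83). In recurrent against residual cells 3 of the 18 fell (Pi16 -2.93, Fbln1 -1.59 and Fbln2 -0.90; limma adjusted p = 0.00117, 0.0464 and 0.0389) and 0 rose, with a median of -0.02. Meox1 was above background on 0 of 11 arrays and Twist2 on 1 recurrent array. The part of fibroblast RNA in the protocadherin differences was not tested.

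Of 10 Schwann cell and glial markers 2 rose and 0 fell in residual against primary cells, beside 4.81% and 7.61% of all named genes. S100b read 4.96 to 6.55 on primary, 10.13, 10.88 and 10.34 on residual, and 7.12 to 9.22 on recurrent arrays, so the groups did not overlap. Sox10 rose by 1.14 (limma adjusted p = 0.00469), and Gfap, Ngfr and Cdh19 were above background on 0 of 11 arrays. The list mean was 4.68 to 4.86 on primary, 5.27 to 5.56 on residual and 4.89 to 5.07 on recurrent arrays. Of the 10, 1 rose in recurrent against primary cells and 1 fell in recurrent against residual cells, S100b in both. Of 12 neuronal markers, Tubb3 rose in residual against primary cells (1.65, limma adjusted p = 0.0115), fell in recurrent against residual cells (-3.38, 0.000231) and fell in recurrent against primary cells (-1.73, 0.0257), and the other 11 were not called. The neuronal list mean was 3.67 to 3.75 on primary, 3.84 to 4.02 on residual and 3.47 to 3.65 on recurrent arrays. The part of these cells in the result was not tested.

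Other cell type lists moved differently, with 4.81% of all named genes called higher and 7.61% lower in residual against primary cells. Of 12 measured macrophage markers 6 fell and 0 rose in residual against primary cells, C1qc (-1.70, limma adjusted p = 0.0151), Tyrobp (-1.68, 0.022) and Cd14 (-1.46, 0.000901) among them, and the list mean was 6.11 to 6.88 on primary, 5.05 to 5.88 on residual and 5.47 to 6.63 on recurrent arrays. Pericyte and smooth muscle markers (0 of 9 called; 3.70 to 3.77, 3.90 to 3.98 and 3.89 to 3.94) and lymphocyte markers (0 of 11; 3.20 to 3.35, 3.29 to 3.65 and 3.15 to 3.37) were mostly in the background range, with 1 and 3 genes, respectively, at an unadjusted p under 0.05 in residual against primary cells in limma. Of the 23835 named genes 6141 were at such an unadjusted p in that comparison. Of 13 endothelial markers, with means of 3.70 to 3.92, 3.56 to 3.80 and 3.86 to 4.26, Erg rose in residual against primary cells (1.19, limma adjusted p = 0.0495). In the same comparison, of 16 luminal markers Cldn4 rose (0.72, 0.0171 in limma) and 3 fell, Krt8, Krt18 and Cldn3 (-1.62, 0.008). Of 12 basal markers Krt14 (2.73, 0.000286) and Mylk (1.09, 0.0366) rose and Itga6 (-2.62, 0.000233) and Itgb4 (-0.89, 0.0168) fell. In recurrent against residual cells Krt14 (-3.28, limma adjusted p = 0.000146), Krt7 (-2.10, 0.0209) and Cldn4 (-0.71, 0.0312) fell. Besides Krt8 and Krt18, Itga6 (1.90, 0.00403) and the endothelial Flt1 (2.42, 0.0324) rose there. In recurrent against primary cells Krt7 (-2.31, limma adjusted p = 0.0206) and Cldn3 (-2.19, 0.00395) fell. The part of these lists in the protocadherin differences was not tested. Residual replicate 2 stood apart in its luminal mean, 6.07 against 5.16 and 5.14, and without it 13 members were called higher in residual than in primary cells. Without that array 2271 named genes were called in either direction, against 1146 higher and 1814 lower on all arrays.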

How the data were processed

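The authors deposited log2 signals of 11 Affymetrix arrays, 24479 probe sets with 1 per Entrez Gene identifier, made with RMA in R 3.0.2 per the submitters' processing notes. RMA normalizes between arrays and compresses dim differences. The place of the probes within each gene is not stated in the labels or file. Members resemble each other, and alpha or gamma members share exons, so which near-identical member gave a signal is uncertain. Of the members 26 had an identical signal on 2 or more arrays, as had 38.3% of named genes.

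Probe sets were named from the platform table and the RefSeq table of GRCm38.p6. Groups were compared with limma 3.58.1 (R 4.3.3), with 1 model on all arrays and Benjamini-Hochberg adjustment over 23835 named genes; calls needed an adjusted p under 0.05. The steps were tested on simulated data. Intervals are moderated 95% intervals. Array number limits precision. Members and gene lists were chosen with earlier results of these data known. The text names every called member, the brightest of each cluster, C-type members, members near the threshold, and from other lists up to 4 called genes per comparison or up to 2 with the smallest p; some further genes were named after their values were seen. Alternatives were other fits, scalings, filters and thresholds, and leaving out each array. Some listed marker genes are not reported here and were left out of their list. Figures used matplotlib 3.10.9.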

Additional observations from a re-analysis of the deposited data

Results flagged for a closer look

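Within groups of 4 arrays, 56 sets of values, those of 25 named members and 3 cluster means in the 2 groups of 4 arrays, were tested for an array far from the other 3, and 5 were flagged; chance flags about 1 in 20. Pcdha5 read 4.03 on primary replicate 4, against 3.33 to 3.43 on the other primary arrays. Pcdhb16 read 3.50 on primary replicate 2, against 4.57 to 4.69, and Pcdhga12 read 3.71 on the same array, against 4.80 to 4.98. Pcdhgb1 was flagged in both groups of 4: it read 8.85 on primary replicate 1, against 8.34 to 8.43, and 7.63 on recurrent replicate 3, against 8.79 to 8.96.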

How the results depend on the processing

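The count of members called in residual against primary cells, 18, was 13 to 19 under the other fits, scalings and filters, 10 at an adjusted p under 0.01, and 11 to 20 on leaving out each array, with 11 without residual replicate 3, primary replicate 1 or primary replicate 2. Calls over all named genes also moved, from 1146 higher and 1814 lower in the main fit. Their total was 2198 to 3264 under the other fits, scalings and filters, and 2228 to 3073 on leaving out each array. Without residual replicate 3, primary replicate 1 or primary replicate 2 it was 2257, 2248 and 2228. Pcdhb10, Pcdhb11, Pcdhb13, Pcdhb16, Pcdhb17, Pcdhb18, Pcdhb19, Pcdhb20, Pcdhga1 and Pcdhga6 kept the residual against primary call in each alternative fit, scaling, filter and left-out array in which they were tested. In recurrent against primary cells the count of 2 was 1 after a second quantile normalization, 2 to 3 under the other fits, scalings and filters, with 3 under both filters and array weights, and 1 at an adjusted p under 0.01, and 1 to 3 on leaving out each array. All named genes called there were 195 higher and 235 lower in the main fit. They were 277 to 580 in total under the alternatives and 203 to 420 on leaving out each array. In recurrent against residual cells the count of 7 was 4 at an adjusted p under 0.01, 5 to 9 under the other fits, scalings and filters, and 4 to 8 on leaving out each array, with 4 without residual replicate 3. All named genes called in that comparison were 854 higher and 523 lower in the main fit. They were 609 to 1509 in total under the other fits, scalings and filters. On leaving out each array they were 936 to 1325, with 1046 without residual replicate 3. Filters on dim genes moved the beta median by leaving fewer genes: in residual against primary cells it was 1.71 over 10 genes above background on at least 3 arrays and 1.49 over 17 genes without the lowest quartile, and in recurrent against residual cells -1.03 and -1.0. Leaving out each array gave beta medians of 0.77 to 1.44 in residual against primary and 0.28 to 0.49 in recurrent against primary cells. Without the lowest quartile the alpha median over 5 genes was 0.39 in residual against primary and -0.22 in recurrent against primary cells, and under median centring and interquartile scaling the first was -0.01 and -0.13. Interquartile scaling moved the median of all named genes from 0.03 to -0.07 in residual against primary cells.

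Same-numbered arrays did not deviate together (correlations from -0.0805 to 0.0172), so the numbers were not taken to pair the samples. With the replicate number as a block, 14, 3 and 6 members were called in the respective comparisons, in place of 18, 2 and 7. Of all named genes 2198, 277 and 872 were called with the block. Without it 1146, 195 and 854 were called higher and 1814, 235 and 523 lower. Dim signal limits the alpha genes and Pcdhb1 to Pcdhb9, where a difference would be compressed.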
